A study of Arabidopsis thaliana with 12 samples.

Results

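The genes described here are those whose level in both reciprocal Arabidopsis hybrids lay near that of the parent with the higher level. They were chosen from RPKM values, the reads of a gene per kilobase of its length and per M reads mapped (M is 1e6), averaged over the 3 libraries of a group. The higher parent had to reach 5 RPKM and the lower parent 0.5 RPKM, the parents had to differ at least 2-fold, and the 3 Col and 3 C24 values were not allowed to overlap. The position of a hybrid, its level minus that of the lower parent divided by the difference between the parents, is 0 at the lower parent, 0.5 midway and 1 at the higher parent, and had to lie in a window within 0.25 of the higher parent in both hybrids. Of 32992 genes listed once, 656 met the parental criteria and 14 of these (2.13%) also lay in the window in both hybrids. C24 was the higher parent of 9 of them (2.45% of 368) and Col of 5 (1.74% of 288), a split that turned with a single library left out, to 11 and 26 without C24 replicate 1 and to 5 and 7 without C24 replicate 2. The floral repressor AT5G10140 was left out by the rule.

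Polyadenylated RNA had been sequenced from whole seedling shoots of Arabidopsis thaliana at 14 days, grown in short days with 8 h of light at 22 °C and 16 h of darkness at 18 °C. Col and C24 are inbred accessions without a transgene or mutation named in the labels, and Col/C24 and C24/Col are the F1 hybrids of the 2 crosses between them, so that every hybrid nucleus carries 1 Col and 1 C24 set of chromosomes. The labels say neither which parent was the mother of a hybrid nor whether a library came from 1 plant or a pool. Each of the 4 groups had 3 replicates, and p-values measure only the spread between these samples, which may be technical.

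A gene that differs between inbred parents is usually expressed in the hybrid at about the mean of both, since each allele tends to give its own output. A hybrid that stands near the higher parent is described as showing high-parent dominance of expression. Values per gene do not separate the output of the Col allele from that of the C24 allele. In bulk tissue fewer cells of a type and less RNA per cell cannot be told apart either.

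The 14 genes had unlike annotated products. The C24-higher genes were WAK2, EXLB1 and AT2G26440, whose products belong to families that act at or on the cell wall, the receptor-like pseudogene RLP18, the flowering regulator MAF4, and AT5G55450, AT1G69900, AT4G01390 and AT5G57760, which have no symbol. The Col-higher genes were ESM1 of glucosinolate breakdown, the cytosolic fumarase FUM2, the anthocyanin enzyme DFR, DR4 and the kelch-repeat gene AT5G43190. Their parental ratio ran from 2.09-fold to 5.86-fold with a median of 2.62, beside 2.74 over the 656 genes. A ratio of 6 or more was found in 93 of the 656 genes and in 0 of the 14, a difference that was not tested. Chromosome 5 held 6 of the 14, and 21.6% of the 656.

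Upstream sequences are shown for the genes whose membership held in the most processing settings of their direction (DFR and FUM2, Col higher, in 22 and 18 of 23 settings, and EXLB1, C24 higher, in 20), and for ESM1, the most highly expressed. Part of these counts was fixed in advance. Lower minimum levels and allowed parental overlap could not remove a member, nor could a minimum of 10 RPKM remove a gene already above it. The upstream sequences are the 250 bases before the annotated gene start in the Col reference (TAIR10.1, RefSeq), 5′ to 3′ on the strand of the gene. Capitals mark the motifs searched on both strands, TATAAA (the TATA box), CACGTG (the G-box, bound by light and anthocyanin regulators) and TTGAC (the core of the W-box, bound by WRKY factors). The C24 sequence was not used here.
DFR, chr5:17166033-17166282, minus strand: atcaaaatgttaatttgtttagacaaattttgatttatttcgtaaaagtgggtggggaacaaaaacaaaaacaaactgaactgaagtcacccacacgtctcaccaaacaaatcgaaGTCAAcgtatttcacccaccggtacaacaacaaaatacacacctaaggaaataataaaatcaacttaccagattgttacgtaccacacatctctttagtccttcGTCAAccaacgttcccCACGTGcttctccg
EXLB1, chr4:9583291-9583540, minus strand: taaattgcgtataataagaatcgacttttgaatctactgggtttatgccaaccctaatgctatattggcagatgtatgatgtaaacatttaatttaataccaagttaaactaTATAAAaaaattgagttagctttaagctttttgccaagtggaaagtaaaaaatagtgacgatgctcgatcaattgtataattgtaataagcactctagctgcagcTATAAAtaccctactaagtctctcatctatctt
FUM2, chr5:20729181-20729430, plus strand: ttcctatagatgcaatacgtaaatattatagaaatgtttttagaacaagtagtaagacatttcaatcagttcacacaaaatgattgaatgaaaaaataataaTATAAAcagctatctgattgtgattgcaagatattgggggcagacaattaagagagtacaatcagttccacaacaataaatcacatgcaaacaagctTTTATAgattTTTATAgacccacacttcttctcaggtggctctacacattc
ESM1, chr3:4729149-4729398, plus strand: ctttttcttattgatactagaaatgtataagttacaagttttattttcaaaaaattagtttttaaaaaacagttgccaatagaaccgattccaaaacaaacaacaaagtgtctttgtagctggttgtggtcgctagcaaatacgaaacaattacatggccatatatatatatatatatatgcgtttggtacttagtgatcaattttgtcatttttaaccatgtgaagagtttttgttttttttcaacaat

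The window of DFR held a G-box and a pair of W-box cores, that of EXLB1 TATA-box letters at 2 places, that of FUM2 TATA-box letters at 3 places, and that of ESM1 none of the motifs. Among the 14 windows, 6 held TATAAA, 1 held CACGTG and 7 held TTGAC, beside 47.3%, 6.49% and 44.9% of 27443 windows of the same length. A match is a description of the letters, and no match says only that these letters are not in the window.

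**Figure D1:**
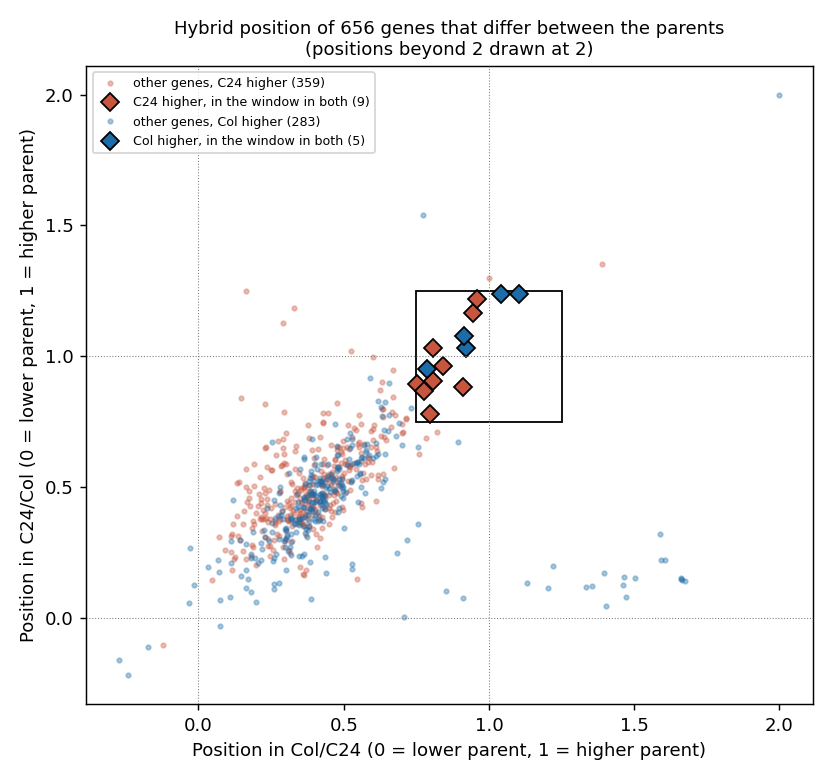
Position of the 656 genes that met the parental criteria in Col/C24 (horizontal axis) and C24/Col (vertical axis), on a scale where 0 is the lower parent and 1 the higher parent. Diamonds are the 14 genes inside the box that lies within 0.25 of the higher parent on both axes, orange where C24 was higher and blue where Col was higher, and the cloud of the other genes lies mostly between 0.25 and 0.75. A gene beyond 2 is drawn at 2.

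The 14 genes sat at the edge of a distribution centred near the mid-parent. The 656 genes had median positions of 0.39 in Col/C24 and 0.49 in C24/Col where C24 was higher, and 0.42 and 0.44 where Col was higher. After median-of-ratios scaling of the libraries these medians were 0.45 and 0.49, and 0.48 and 0.45, so that the order of the hybrids turned where Col was higher. Of the 656 genes 455 (69.4%) lay from 0.25 to 0.75 in both hybrids, and 31 lay within 0.25 of the lower parent in both. The window held 27 genes (4.12%) in Col/C24 and 46 (7.01%) in C24/Col, and with the same scaling 39 (6.07%) and 43 (6.69%) of 643. Those in Col/C24 as deposited included organelle genes. Examples are the plastid gene ATCG00120, at 1.22 in Col/C24 and 0.20 in C24/Col, and the mitochondrial gene ATMG00030, at 0.85 and 0.10. Just inside the lower bound of the window were RLP18, with a smaller position of 0.753, and AT2G26440, with 0.777. Just outside were AT1G62510, annotated to the lipid-transfer protein superfamily, with 0.730, and the disease resistance gene AT1G61310, with 0.716. At the upper bound ESM1 and DR4, both at 1.24 in C24/Col, were inside, and AT3G22235, at 1.298 in C24/Col, and MAPR2, at 1.39 and 1.35, were outside.

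Among the C24-higher genes with a cell wall annotation, WAK2 had the highest level. It encodes a wall-associated kinase, a receptor-like kinase that binds pectin and takes part in cell expansion. WAK2 stood at 14.1, 10.9 and 12.8 RPKM in Col replicates 1 to 3, at 31.9, 20.1 and 27.1 RPKM in C24, at 31.1, 19.5 and 26.1 RPKM in Col/C24, and at 33.2, 22.8 and 29.9 RPKM in C24/Col. All 6 hybrid libraries were above every Col library, 5 of them reached the C24 range, and replicate 2 was the lowest in each group. The group positions were 0.94 and 1.16. Its relative WAK1 averaged 4.94 ± 0.775 (SD, n = 3) in Col, 6.91 ± 1.90 in C24, 6.43 ± 0.0850 in Col/C24 and 9.19 ± 3.59 RPKM in C24/Col. The gene AT1G21280 overlaps WAK2 on the opposite strand, and without a statement on strand in the sources the reads of such a pair cannot be told apart.

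EXLB1 encodes an expansin-like protein, of the family of wall-loosening expansins. EXLB1 stood at 3.77, 5.61 and 5.60 RPKM in Col, at 12.5, 11.4 and 13.1 RPKM in C24, at 10.04, 12.6 and 10.8 RPKM in Col/C24, and at 11.1, 13.8 and 11.3 RPKM in C24/Col. The hybrids did not overlap Col. Of their 6 libraries only the 2 of replicate 2 reached the C24 range, and that of C24/Col lay above all of C24. AT2G26440 is listed as PME12, a pectin methylesterase, an enzyme that removes methyl groups from wall pectin. Its means were 4.41 ± 1.82 (SD, n = 3) in Col, 9.84 ± 1.73 in C24, 8.63 ± 2.68 in Col/C24 and 9.12 ± 2.14 RPKM in C24/Col. Col/C24 replicate 2, at 5.64 RPKM, lay below Col replicate 1, at 6.51 RPKM, so that its groups overlapped.

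RLP18, a transcribed pseudogene of the receptor-like proteins that sense microbes at the cell surface, had the largest parental ratio of the C24-higher genes. RLP18 stood at 2.75, 2.6 and 1.06 RPKM in Col, at 11.4, 14.4 and 10.5 RPKM in C24, at 11.7, 10.06 and 7.16 RPKM in Col/C24, and at 12.6, 11.7 and 8.94 RPKM in C24/Col. No hybrid library came near the Col range, and replicate 3 was the lowest in all 4 groups. The next gene on the same strand, AT2G15042, encodes a leucine-rich repeat protein and had means of 3.26, 16.4, 12.1 and 13.4 RPKM in Col, C24, Col/C24 and C24/Col. Its positions of 0.67 and 0.77 left it outside the window in Col/C24. The sources used here do not say how reads shared between close copies were counted, so that the levels of this pair are uncertain.

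MAF4 is a MADS-box factor related to AT5G10140 that delays flowering. Its means were 2.11 ± 0.284 (SD, n = 3) in Col, 5.17 ± 1.04 in C24, 4.57 ± 0.658 in Col/C24 and 4.88 ± 0.893 RPKM in C24/Col. All 6 hybrid libraries, from 3.85 to 5.43 RPKM, were above the highest Col library at 2.44 RPKM. The adjacent genes of the same family stood otherwise. MAF3 averaged 9.84 ± 0.998 in Col, 12.03 ± 1.60 in C24, 9.75 ± 0.820 in Col/C24 and 10.5 ± 1.85 RPKM in C24/Col. MAF5 was lower in C24, at 1.75 ± 0.523 RPKM, than in Col, at 3.91 ± 0.739 RPKM, and averaged 4.86 ± 0.256 in Col/C24 and 5.75 ± 0.466 RPKM in C24/Col.

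The other 4 C24-higher genes are known by their annotation alone. AT5G55450, of the lipid-transfer protein and albumin superfamily, stood at 4.64, 4.51 and 3.60 RPKM in Col, at 12.2, 10.8 and 12.6 RPKM in C24, at 12.1, 12.4 and 10.09 RPKM in Col/C24, and at 14.3, 14.9 and 11.3 RPKM in C24/Col. Of its 6 hybrid libraries 5 reached the C24 range and 2, both C24/Col, exceeded it. AT1G69900, annotated as an actin cross-linking protein, stood at 3.90, 1.12 and 1.58 RPKM in Col, at 11.4, 4.46 and 5.70 RPKM in C24, at 10.2, 4.05 and 4.40 RPKM in Col/C24, and at 11.6, 4.40 and 6.02 RPKM in C24/Col. Replicate 1 was the highest library of each group, and Col replicate 1 lay just below the lowest hybrid library.

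AT5G57760, which encodes an uncharacterized protein, stood at 3.46, 1.19 and 4.41 RPKM in Col, at 12.96, 4.96 and 13.8 RPKM in C24, at 11.9, 3.20 and 12.1 RPKM in Col/C24, and at 8.65, 3.92 and 14.2 RPKM in C24/Col. Replicate 2 was the lowest of each group, and in both hybrids it lay below the highest Col library, so that hybrids and Col overlapped. This gene overlaps AT5G57770 on the opposite strand. AT4G01390, a TRAF-like gene, averaged 2.13 ± 0.483 (SD, n = 3) in Col, 5.07 ± 0.289 in C24, 4.81 ± 0.746 in Col/C24 and 4.72 ± 0.99 RPKM in C24/Col. Its 6 hybrid libraries ran from 3.65 to 5.60 RPKM, all above the highest Col library at 2.64 RPKM.

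Among the Col-higher genes, ESM1 had the highest level and the largest ratio of all 14. ESM1, the epithiospecifier modifier, directs glucosinolate breakdown towards isothiocyanates and away from the nitriles that the protein ESP favours. ESM1 stood at 152, 223 and 238 RPKM in Col, at 28.0, 39.6 and 37.0 RPKM in C24, at 122, 275 and 236 RPKM in Col/C24, and at 152, 311 and 271 RPKM in C24/Col. Every hybrid library was above every C24 library, replicate 1 was the lowest of each group, and 3 of the 6 hybrid libraries exceeded all of Col. ESP itself was listed at 12.7 ± 1.08 (SD, n = 3) in Col and 2758 ± 163 RPKM in C24, and the hybrids, at 1307 ± 120 and 1359 ± 37.1 RPKM, lay at positions of 0.47 and 0.49. In the hybrids the level of ESM1 was thus near Col and that of ESP midway.

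FUM2 encodes a cytosolic fumarase that makes the fumarate which Arabidopsis leaves store by day, and its promoter is known to differ among accessions. FUM2 stood at 33.1, 35.6 and 26.5 RPKM in Col, at 17.8, 15.2 and 12.4 RPKM in C24, at 33.3, 34.8 and 22.7 RPKM in Col/C24, and at 38.6, 35.2 and 25.3 RPKM in C24/Col. The hybrids did not overlap C24, and replicate 3 was the lowest in all groups. The mitochondrial fumarase FUM1 averaged 53.8 ± 3.58 (SD, n = 3) in Col, 48.9 ± 4.19 in C24, 48.4 ± 2.89 in Col/C24 and 49.1 ± 0.330 RPKM in C24/Col.

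DFR, dihydroflavonol reductase, catalyses the first step that is dedicated to anthocyanins and proanthocyanidins. DFR stood at 13.2, 12.9 and 8.43 RPKM in Col, at 3.36, 4.33 and 3.08 RPKM in C24, at 11.7, 12.3 and 8.73 RPKM in Col/C24, and at 11.3, 14.1 and 9.95 RPKM in C24/Col. All 6 hybrid libraries were inside or above the Col range and none approached C24. Among the other genes of the pathway, the chalcone synthase TT4 averaged 15.1 ± 2.68 in Col, 8.11 ± 1.69 in C24, 16.0 ± 3.04 in Col/C24 and 14.4 ± 2.35 RPKM in C24/Col. The anthocyanidin synthase LDOX averaged 5.17 ± 1.61, 2.27 ± 1.02, 4.42 ± 1.03 and 4.32 ± 0.348 RPKM in the same order. F3H averaged 5.17, 2.87, 4.37 and 4.26 RPKM, with both hybrids nearer Col, the higher parent. The pattern was not shared by all flavonoid genes. TT5, at 4.77, 8.03, 4.57 and 5.76 RPKM, and FLS1, at 1.75, 1.01, 1.02 and 1.23 RPKM, had both hybrids nearer the lower parent. The flavonol glycosyltransferase UGT78D1, the other flavonoid gene that met the parental criteria, lay at positions of 0.57 and 0.61.

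The remaining Col-higher genes were AT5G43190, a gene of kelch-repeat proteins, and DR4, a gene repressed by drought whose product resembles Kunitz protease inhibitors. AT5G43190 stood at 22.5, 17.2 and 18.0 RPKM in Col, at 8.25, 9.56 and 8.77 RPKM in C24, at 19.1, 16.5 and 15.4 RPKM in Col/C24, and at 18.9, 18.1 and 19.1 RPKM in C24/Col. No hybrid library exceeded the highest Col library or came near C24. DR4 stood at 7.64, 9.73 and 14.99 RPKM in Col, at 3.49, 3.35 and 4.87 RPKM in C24, at 11.9, 10.6 and 12.02 RPKM in Col/C24, and at 11.2, 13.4 and 12.7 RPKM in C24/Col. All 6 hybrid libraries lay within the Col range, which was wide.

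**Figure D2:**
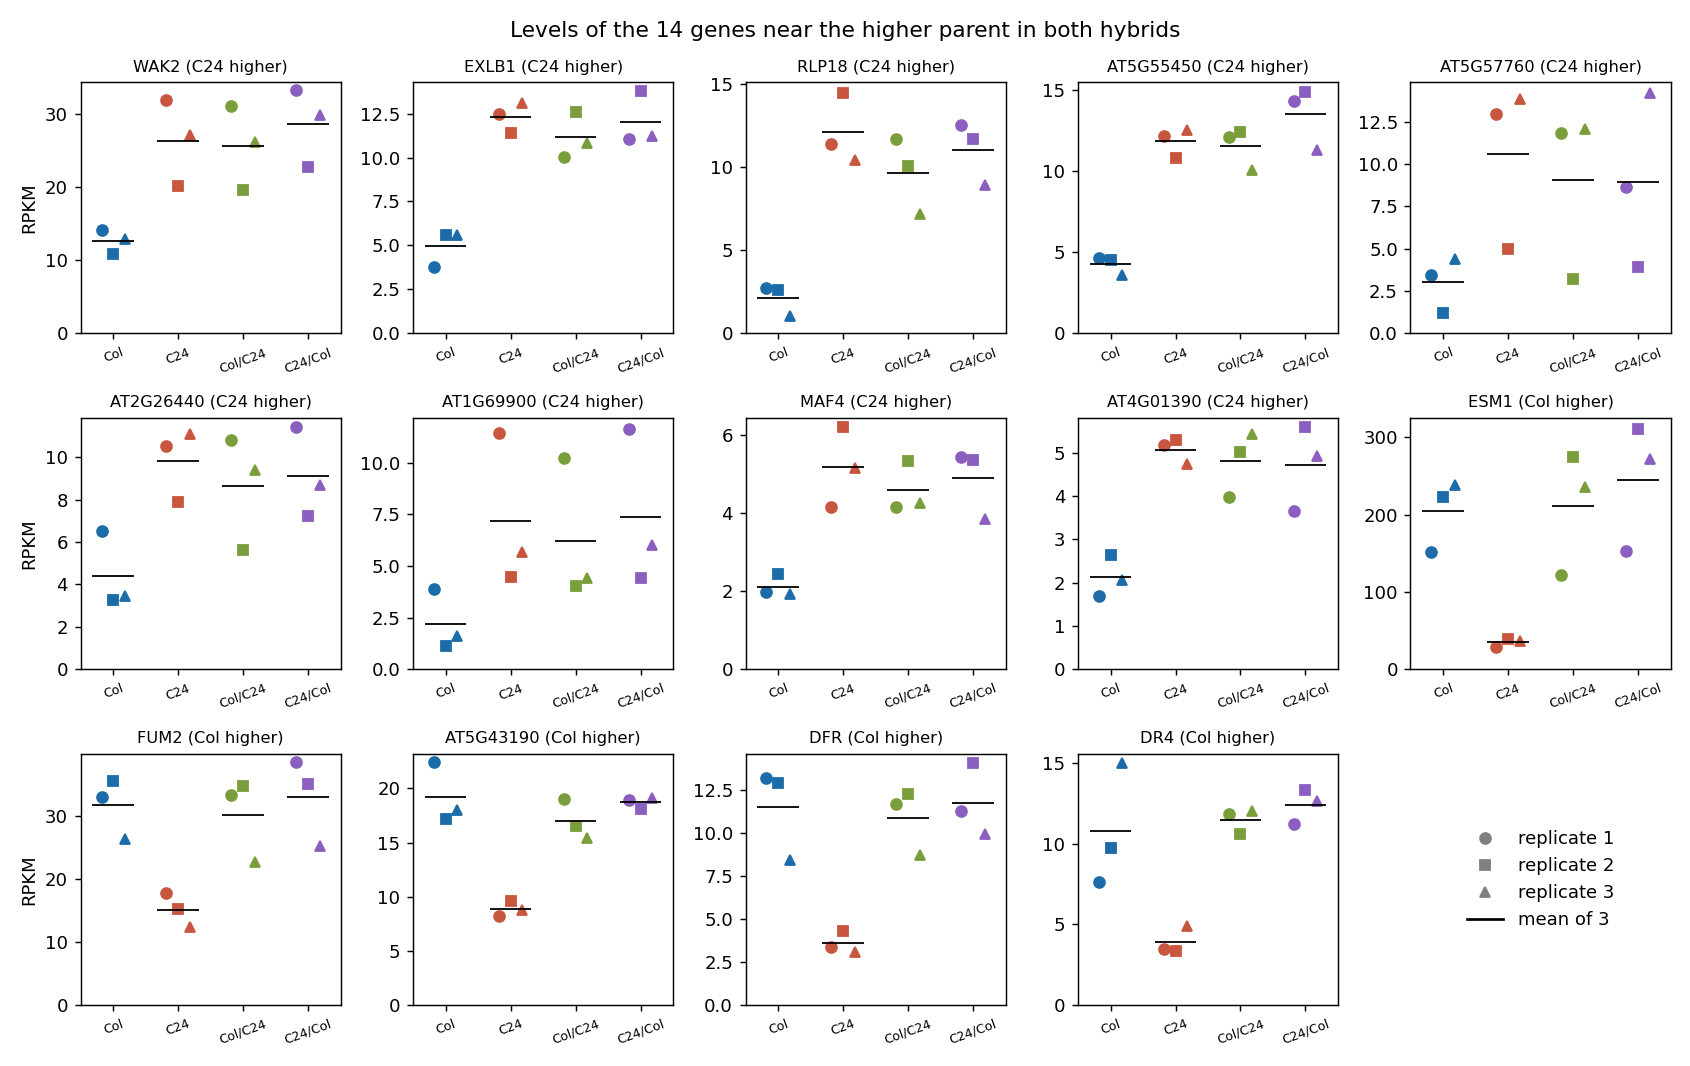
RPKM of the 14 genes in each library, 1 panel per gene, with a linear axis from 0 that differs between panels. Colours are the groups Col, C24, Col/C24 and C24/Col, marker shapes are replicates 1 to 3 and the bar is the mean of 3. In 12 of the 14 panels all 6 hybrid points lie above every point of the lower parent. In 2 panels, DFR and DR4, all 6 also lie at or above the lowest point of the higher parent.

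Each hybrid library was also placed between the parental libraries that share its replicate number. All 84 positions (14 genes in 6 hybrid libraries) were above 0.5, and they ran from 0.515 to 2.01 with a median of 0.935. The window held 52 of them, and 14 lay above it. The lowest were those of AT2G26440 and AT5G57760 in Col/C24 replicate 2, and the highest that of DR4 in Col/C24 replicate 1. The closest agreement between replicates was in WAK2, at 0.96, 0.94 and 0.93 in Col/C24. Since the means of these same libraries chose the genes, the positions are a description.

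**Figure D3:**
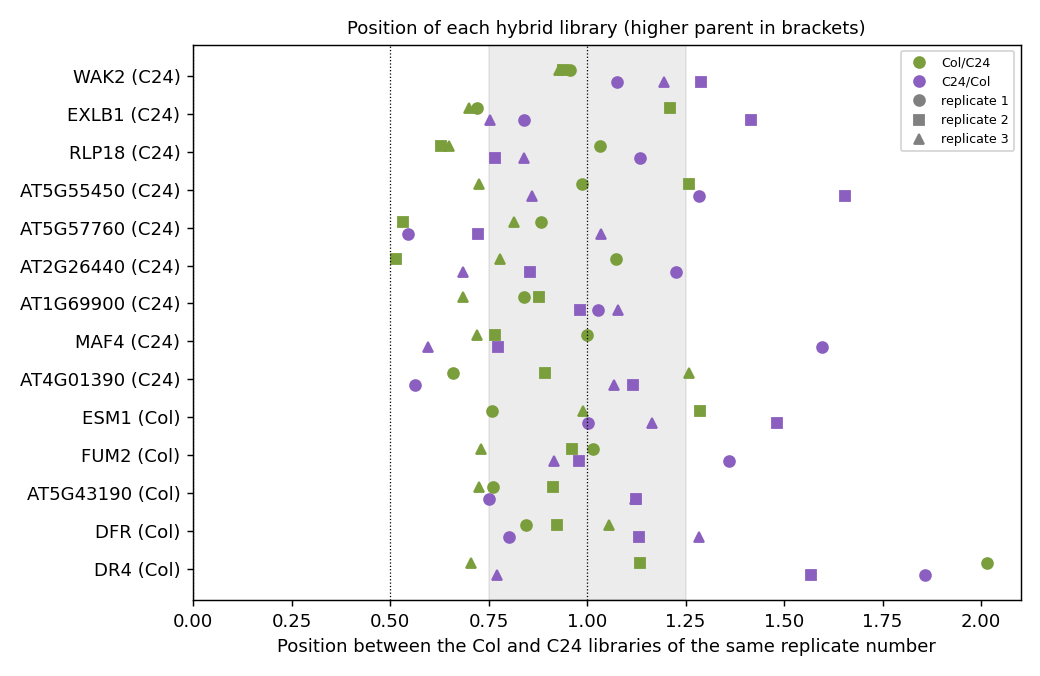
Position of each hybrid library between the parental libraries with its replicate number, for the 14 genes (rows, with the higher parent in brackets). Green marks are Col/C24 and purple marks C24/Col, shapes are replicates, and the grey band is the window within 0.25 of the higher parent. No mark lies below the dotted line at 0.5.

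The order of the hybrids depended in part on how the libraries were scaled. The C24/Col mean was above the Col/C24 mean in 12 of the 14, and the position was higher in C24/Col for 502 of all 656 genes. With median-of-ratios scaling these counts were 11 of the 14 and 341 of 643. Library medians over the 14 genes were 0.92, 0.918 and 0.728 in Col/C24 replicates 1 to 3 and 1.05, 1.12 and 0.976 in C24/Col. As deposited, ESM1 and DR4 exceeded the higher parent's mean in Col/C24 and 7 genes did in C24/Col, but with that scaling 7 genes did in each hybrid. Ribosomal RNA genes took over 2% of the deposited signal in 4 libraries, Col replicates 1 and 2 and Col/C24 replicates 1 and 3, and its part in this difference was not tested.

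The rule was then applied to 2 of the 3 replicate numbers and the position was read in the third, which had taken no part in the choice. Without replicate 1 the rule took 12 genes, 7 of them among the 14, and in replicate 1 their median positions were 0.843 in Col/C24 and 0.843 in C24/Col, with 5 and 4 of the 12 in the window. Without replicate 2 it took 11 genes, 9 of them shared, with medians of 0.939 and 1.13 in replicate 2 and 5 of 11 in the window in each hybrid. Without replicate 3 it took 21 genes, 9 of them shared, with medians of 0.664 and 0.916 in replicate 3, where 2 of 21 in Col/C24 and 12 of 21 in C24/Col lay in the window and 16 and 6 lay below it. The genes meeting the parental criteria had medians from 0.369 to 0.544 in the same left-out libraries. AT1G69900 and DFR were taken in all 3 choices, 7 of the other genes in 2 and 5 in 1.

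**Figure D4:**
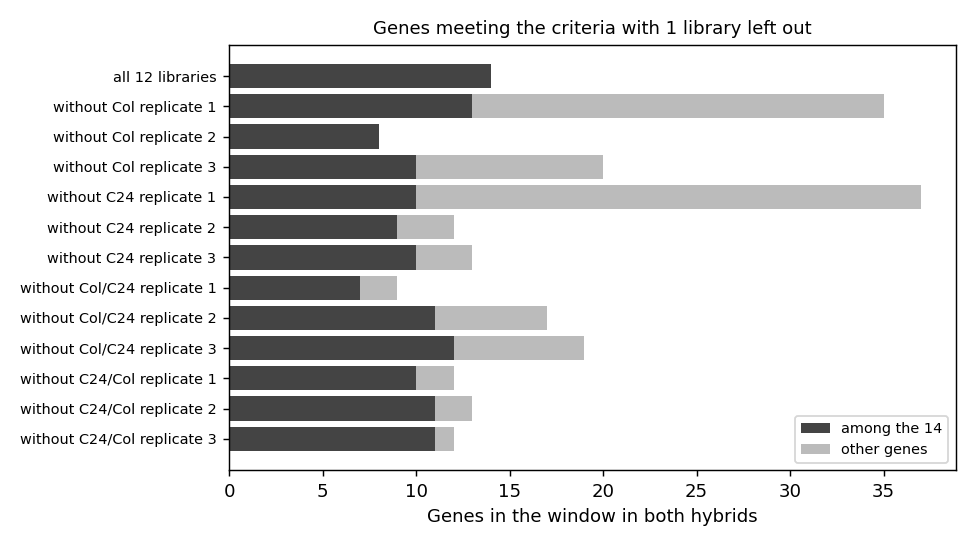
Number of genes that met all criteria (horizontal axis) with all 12 libraries and with each library left out (rows). Dark bars are genes among the 14 and light bars are others, and the total ran from 8 to 37.

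Membership thus depended on single libraries. Leaving out Col replicate 1 gave 35 genes, leaving out C24 replicate 1 gave 37, leaving out Col replicate 2 gave 8 and leaving out Col/C24 replicate 1 gave 9. Between 7 and 13 of the 14 stayed in whichever library was left out.

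Replicate numbers gave a contrast that the group means did not use, although the criterion of no overlap limits the spread within the parents. In limma with the group as a term, fitted over 17927 genes, replicate 1 was compared with replicates 2 and 3 across all 4 groups. Of the 14 genes 8 passed an adjusted p of 0.05, beside 34.1% of all genes tested. Against the mean of replicates 2 and 3, 6 were higher and 2 lower in replicate 1, beside 16.6% and 17.5% of all genes. AT1G69900 had the largest difference, higher in replicate 1 by 1.06 on the log2(RPKM + 1) scale (SE 0.06, limma adjusted p = 3.66e-07), in 4 of 4 groups. ESM1 was lower by a log2 difference of -0.75 (SE 0.09, limma adjusted p = 6.85e-05), also in 4 of 4 groups. WAK2 (log2 difference 0.36, limma adjusted p = 0.000194) and AT2G26440 (0.48, limma adjusted p = 0.00349) were higher in replicate 1 than in the mean of replicates 2 and 3. AT5G57760 (0.47) and FUM2 (0.26) passed in the same direction. In AT5G57760, however, replicate 1 lay below replicate 3 in every group, and replicate 2 was the lowest. In FUM2 replicate 3 was the lowest of every group, and replicate 1 lay below replicate 2 in Col and Col/C24. EXLB1, the other gene with a cell wall annotation, had a difference of -0.20 and did not pass (limma adjusted p = 0.0857).

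RLP18 (log2 difference 0.26, limma adjusted p = 0.0489) and AT4G01390 (-0.26, limma adjusted p = 0.0301) passed narrowly. Their calls held in 4 and 7 of 16 settings. In RLP18 replicate 3 was the lowest of every group, and in C24 replicate 1 lay below replicate 2. In AT4G01390 replicate 1 was the lowest of Col and of both hybrids. In C24, however, its replicate 1, at 5.17 RPKM, lay between replicate 3, at 4.74 RPKM, and replicate 2, at 5.29 RPKM. AT5G55450, MAF4, AT5G43190, DFR and DR4 did not pass either. With the 6 parental libraries alone 3 of the 14 passed, beside 9.07% of all genes, and with the 6 hybrid libraries alone 7 passed, beside 20.3%. The difference between hybrids and parents in the effect of replicate 1 was tested as an interaction and passed for 0 of the 14 and 0% of all genes in limma, where 536 genes had an unadjusted p under 0.05. Of the 14, ESM1 had the lowest unadjusted p there, 0.000897 in limma (adjusted p = 1.0). The labels do not say what a replicate number stands for.

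**Figure D5:**
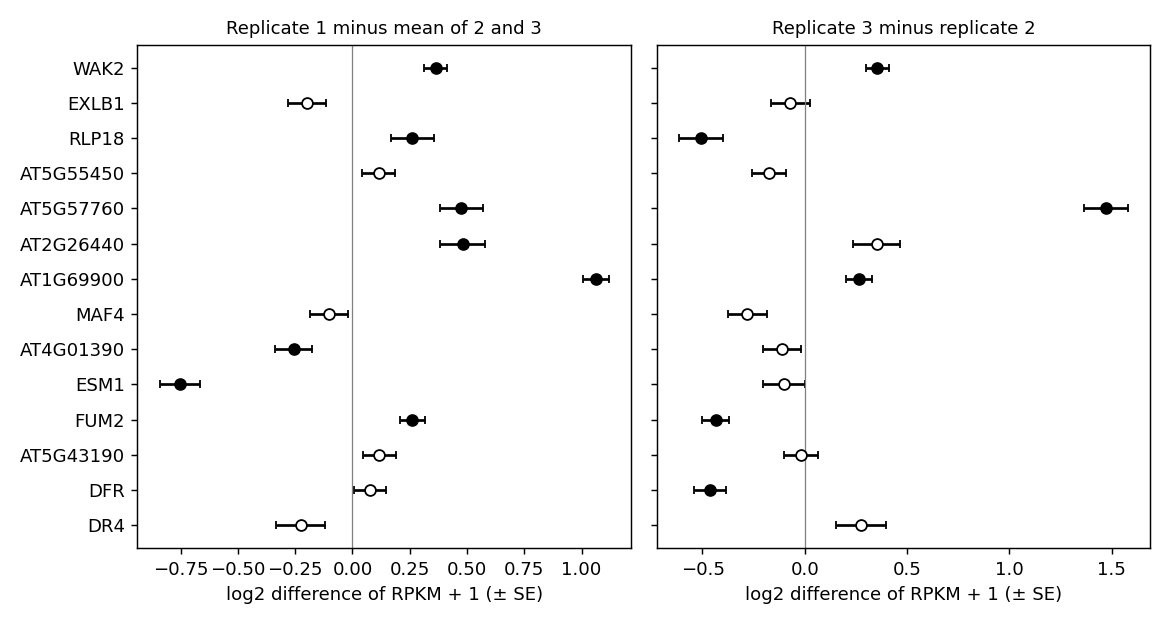
Difference between replicate numbers for the 14 genes on the log2(RPKM + 1) scale, replicate 1 against the mean of 2 and 3 (left) and replicate 3 against replicate 2 (right), from limma over all 12 libraries. Points are estimates, bars are ± 1 SE and filled points passed an adjusted p of 0.05, 8 on the left and 6 on the right.

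Replicate 3 differed from replicate 2 in 6 of the 14 genes, 3 higher and 3 lower, beside 12.5% of all genes tested (5.68% higher and 6.82% lower). AT5G57760 was higher in replicate 3 by 1.47 on the log2 scale (SE 0.11, limma adjusted p = 3.82e-05), in 4 of 4 groups. WAK2 was higher by 0.35 (limma adjusted p = 0.00258) and AT1G69900 by 0.26 (limma adjusted p = 0.0228), a call that held in 10 of 16 settings. DFR was lower in replicate 3, with a log2 difference of -0.46 (limma adjusted p = 0.00354), and so were RLP18, with -0.51 (limma adjusted p = 0.0112), and FUM2, with -0.44 (limma adjusted p = 0.00178). With the parental libraries alone 1 of the 14 passed, beside 0.239% of all genes, and with the hybrid libraries alone 6 passed, beside 8.87%.

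The contrasts that the rule used are given without a reading. For C24 against Col 12 of the 14 passed in limma beside 22.7% of all genes, and with the replicate number as a block 14 passed beside 41.8%. AT5G57760 (limma adjusted p = 0.0827) and AT1G69900 (limma adjusted p = 0.052) were the 2 that did not pass without the block. Against the mid-parent, the mean of the Col and C24 libraries of a replicate number, 0 of the 14 passed in either hybrid in limma, beside 0.0335% of all genes in Col/C24 and 0.0502% in C24/Col, and 5 and 8 had an unadjusted p under 0.05, beside 8.85% and 6.07% of all genes. With the replicate block 7 passed in Col/C24, beside 2.9% of all genes, and 10 in C24/Col, beside 1.57%. All of these lay above the mid-parent, beside 0.296% of all genes in Col/C24 and 0.731% in C24/Col. The share of genes with no overlap between the 3 Col and 3 C24 values, a criterion of the rule, was 37.4% of those tested.

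Over all genes tested limma without the replicate block called 10.3% higher and 12.4% lower in C24, the background for the lists that follow. The list calls come from the same fit. With the block 41.8% of all genes were called, so a list gene that was not called may still differ between the parents. Of 27 gene lists, 5 held 1 of the 14 genes each and 22 held none. Of the glucosinolate list 12 genes met the parental criteria, and among these ESM1 alone was near the higher parent in both hybrids. Genes whose parents differed less than 2-fold were not considered. Of these, TGG1 averaged 1305 in Col, 2163 in C24, 2021 in Col/C24 and 2179 RPKM in C24/Col. TGG2 averaged 354, 608, 594 and 639 RPKM in the same order, so that both genes had hybrids nearer C24. SUR1, at 17.2, 31.0, 17.8 and 21.5 RPKM, had hybrids nearer Col, the lower parent. Of the 30 other tested genes of the glucosinolate list limma called 19 higher and 1 lower in C24, and 10 were not called. The flavonoid list had 12 tested genes other than DFR, of which 5 were called lower in C24, 0 higher and 7 not called. The flowering list had 31 tested genes beside MAF4, 2 called higher and 9 lower in C24, and 6 of the list met the parental criteria. The immune receptor list, which held WAK2, had 24 other tested genes with 1 called higher and 7 lower. For the sugar and starch list, which held FUM2, the 24 other tested genes split into 2 higher, 2 lower and 20 not called.

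Markers of the labelled tissue were high. The summed level of 5 leaf genes was 18354 to 24857 RPKM in the 12 libraries, with LHCB1.3 listed at 0. The 10 flower genes summed to 3.17 to 5.09 RPKM in the parents and to 1.85 to 2.74 RPKM in the hybrids. The 14 root genes, mostly PYK10, summed to 88.6 to 116 RPKM in Col, 125 to 133 RPKM in C24 and 107 to 122 RPKM in the hybrids. Seed storage genes reached 56.9 RPKM in a Col/C24 library and 157 RPKM in a C24/Col library and at most 1.28 RPKM in the parents. The part of these other markers in the positions was not tested. Estimated depth was 15.6 M to 27.2 M reads per library, and the least expressed member library rested on an estimated 17.9 reads, with a median of 255.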

How the data were processed

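RNA was measured by poly(A) sequencing in 12 libraries, 3 for each of the parents Col and C24 and the hybrids Col/C24 and C24/Col. Reads were aligned with TopHat to TAIR10, per the submitters' processing notes. TAIR10 is the Col reference, and whether C24 reads aligned to it as well as Col reads was not tested. How reads were counted, and on which annotation, is not given in the sources used here. For each library the authors deposited 1 value per gene, taken to be RPKM since low values multiplied by gene length fell on whole steps of a size particular to the library. These steps in genes of 150 to 600 bp gave the depths, with 69.4% to 75.6% of values whole within 0.15 of a read. Counting intervals are not given, since they would leave out all other error. Of 34133 lines per file, 32992 identifiers occurred once and were used, and 32248 of these matched TAIR10.1 for symbols and upstream sequence.

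Members and gene lists were chosen with earlier results of these data known. Genes named are the members, with values in every library for the 4 highest by mean and the 3 largest by ratio in each direction; other genes come from the lists or neighbour a member, and the genes around the window bounds were named after their values were seen. Group means, positions and counts were computed with Python 3.11.15 (numpy 2.4.6, pandas 2.3.3, matplotlib 3.10.9). Models were fitted with limma 3.58.1 in R 4.3.3 on log2(RPKM + 1), a scale that understates changes of low genes, over genes with at least 1 RPKM in 3 libraries (17927), with a mean-variance trend and Benjamini-Hochberg adjustment over all genes, threshold 0.05. The limma fits for replicate 1, C24 against Col and Col/C24 against the mid-parent were tested on simulated data with independent errors between libraries.

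Deviations from group means correlated at 0.54 to 0.83 for the 18 library pairs that share a replicate number, and at -0.65 to 0.19 for the 36 that do not. By this measure the numbers pair the samples, although no label names a shared batch or day. Alternatives covered scaling, the position's scale, medians, minimum levels, the overlap criterion, the window, the filter, the pseudocount, the replicate block and left-out libraries.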

Additional observations from a re-analysis of the deposited data

How the results depend on the processing

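The number of genes near the higher parent in both hybrids depended on the scale and limits of the rule. Positions on log2(RPKM + 1) gave 42 genes (26 C24 higher, 16 Col higher), minimum levels of 1 and 0.1 RPKM gave 35 (19 and 16) of 1273 that met the parental criteria, and a window from 0.9 to 1.1 gave 2 (0 and 2). Median-of-ratios scaling gave 18, 13 of them shared with the 14, and group medians 11, of which 7 were shared and 5 were C24 higher. A minimum of 10 RPKM left 5 C24-higher genes. Without the 4 libraries above 2% ribosomal RNA 18 genes met the rule (15 C24 higher, 3 Col higher), 7 of them shared. Col replicate 3 and Col/C24 replicate 2 were then the only libraries left of those groups. In Col/C24 AT5G57760 stood at -0.196, WAK2 at 0.496 and DR4 at 0.603. DFR, at 1.79 in Col/C24 and 1.69 in C24/Col, and FUM2, at 1.74 and 1.58, lay above the window in both hybrids. Leaving out 1 library or replicate number gave 8 to 37 genes (5 to 28 C24 higher, 2 to 26 Col higher) of 652 to 760, and the cause was not tested.

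With 1 library left out, 6 to 10 of the 14 were called for replicate 1 (24.4% to 34.6% of all genes), 5 to 8 for replicate 3 against 2 (6.31% to 15.3%), and 11 to 13 for C24 against Col (17.63% to 22.87%). With the parental libraries alone 3 and 1 were called for the replicate contrasts. Against the mid-parent the replicate block called 7 in Col/C24 and 10 in C24/Col, and a geometric mid-parent called 2 in C24/Col (0.681% of all genes). With the arithmetic mid-parent and no block limma called 0, with all libraries as with 1 left out. The lowest levels of the lower parent rest on as few as 17.9 estimated reads, which limits the precision of positions.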

Other observations

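Other genes stood near the higher parent in 1 hybrid. These were chosen after their values were seen, and the difference between the hybrids was not tested for them. FER1, the ferritin that stores iron in plastids, averaged 110 ± 38.9 RPKM (SD, n = 3) in Col, 260 ± 82.6 in C24, 160 ± 31.8 in Col/C24 and 287 ± 43.0 RPKM in C24/Col, at positions of 0.33 and 1.18. HB-2, a homeodomain factor of the shade response, averaged 14.1 ± 1.03 in Col, 34.6 ± 3.69 in C24, 26.4 ± 1.17 in Col/C24 and 34.5 ± 7.95 RPKM in C24/Col. The kinase gene MKK9, of stress signalling, was at 7.38 ± 2.24, 20.7 ± 6.51, 9.34 ± 1.76 and 18.6 ± 5.36 RPKM in the same order. BGL2, a pathogenesis-related glucanase, was at 0.507 ± 0.227, 5.21 ± 0.639, 1.27 ± 0.972 and 6.38 ± 4.47 RPKM.

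VSP2, a vegetative storage protein induced by jasmonate, lay beyond the window in both hybrids. It averaged 24.6 ± 4.11 RPKM in Col and 11.3 ± 2.06 RPKM in C24, and 41.5 ± 7.12 and 47.5 ± 10.3 RPKM in Col/C24 and C24/Col, at positions of 2.28 and 2.73. Of the 288 Col-higher genes 16 (5.56%) were above the window in Col/C24, beside 1 (0.272%) of the 368 C24-higher genes. Apart from VSP2, these Col-higher genes were ribosomal RNA genes or genes of the plastid or mitochondrial genome. Those with the highest levels were ribosomal RNA genes such as AT3G41768, at 5070 RPKM in Col and 6924 RPKM in Col/C24. The 4 libraries above 2% ribosomal RNA were all of Col or Col/C24.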
